A study of Mus musculus with 5 samples.

Results

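The Kruppel-like factors (KLFs) are zinc-finger transcription factors, and 9 of them (Klf2, Klf3, Klf4, Klf6, Klf7, Klf9, Klf10, Klf12 and Klf13) were followed here in natural killer T (NKT) cells of the mouse thymus that developed with or without interleukin-15. The members were taken by symbol, through the RefSeq transcript that each non-control array probe is annotated to. Each of the 9 genes had 1 probe with 1 spot per array, out of 20009 genes with a named probe and 11991 genes bright enough to be tested. NKT cells carry a T-cell receptor for lipid antigens on the presenting molecule CD1d, and interleukin-15 is a cytokine needed by NK cells and by memory and innate-like T cells. The 5 arrays were 2 of NKT cells from C57BL/6 mice of genotype IL15-/- (IL15ko) and 3 of NKT cells from wild-type C57BL/6 mice, with no age or sex given. Every sample was sorted for CD3e and CD1d tetramer binding from T-cell-enriched suspensions of 10 pooled thymi, so an animal-to-animal spread cannot be read from them. The labels give IL15-/- as the genotype of the mice, with no restriction to a cell type.

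KLFs bind CACCC boxes and GC boxes in DNA through C-terminal zinc fingers, and differ mainly in the N-terminal part, which recruits activators or repressors. In T cells KLF2 is known for maintaining quiescence and for driving the genes by which mature thymocytes leave the thymus, among them S1pr1. Other members are known for repression through CtBP (KLF3, KLF12), for restraint of CD8 T-cell proliferation (KLF4), for responses to TGF-beta (KLF10) and glucocorticoids (KLF9), and for activation of the chemokine gene Ccl5 in T cells (KLF13).

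On IL15ko arrays 1 and 2, 45.1% and 33.9% of the 55681 probes were flagged as well above background, against 44.6% to 49.6% on wild-type arrays. IL15ko 2 was therefore the dimmest array. The robust SD of log2 differences between arrays was 0.386 for the IL15ko pair and 0.155 for wild-type 1 and 2. It was 0.365 to 0.393 for the other wild-type pairs and 0.0792 to 0.129 for repeated spots of a probe. Wild-type 1 and 2 thus lay closest together. They were kept as separate samples because the labels number them so. The probe for Il15 was well above background on 0 of 5 arrays, so it does not check the genotype. All 7 markers of T and NKT cells were well above background on all 5 arrays, and their summed level was 51.4 to 57.6 in IL15ko and 55.7 to 59.6 in wild-type arrays, in units of each array's 75th percentile. Within this list 2 markers rose in IL15ko, Slamf6 by 2.95-fold (adjusted p = 0.0103, lost without IL15ko 2, wild-type 1 or wild-type 2, at 0.0565 to 0.0656) and Zbtb16 by 2.83-fold (adjusted p = 0.0161). Differences lay below 0 in 4 of these 7 markers, and 0 were called lower. Groups did not overlap in 2 lower ones, Cd3d (-0.26 ± 0.14, adjusted p = 0.294) and Cd3g (-0.77 ± 0.36, adjusted p = 0.235), and in 3 higher ones. Over all genes tested, groups did not overlap in 22.1% that were lower and 25.1% that were higher. The shares called were 3.58% lower and 3.75% higher. Of 6 markers of double-positive thymocytes, 5 (Rag1, Rag2, Ptcra, Cd8a and Cd8b1) were well above background on no array.

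The probes of 8 members were well above background on all 5 arrays, and that of Klf12 on IL15ko 1 and wild-type 3 only. The software's own error of the 8 clearly measured probes was 10% to 11.8% of the signal. Levels below are log2 signals relative to the 75th percentile of the same array, so that 0 stands for the percentile itself. Levels are set against each other between groups for 1 gene at a time, not between genes, since probes differ in how well they bind. In whole populations such as these, fewer cells that express a gene and less RNA per cell cannot be told apart.

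**Figure D1:**
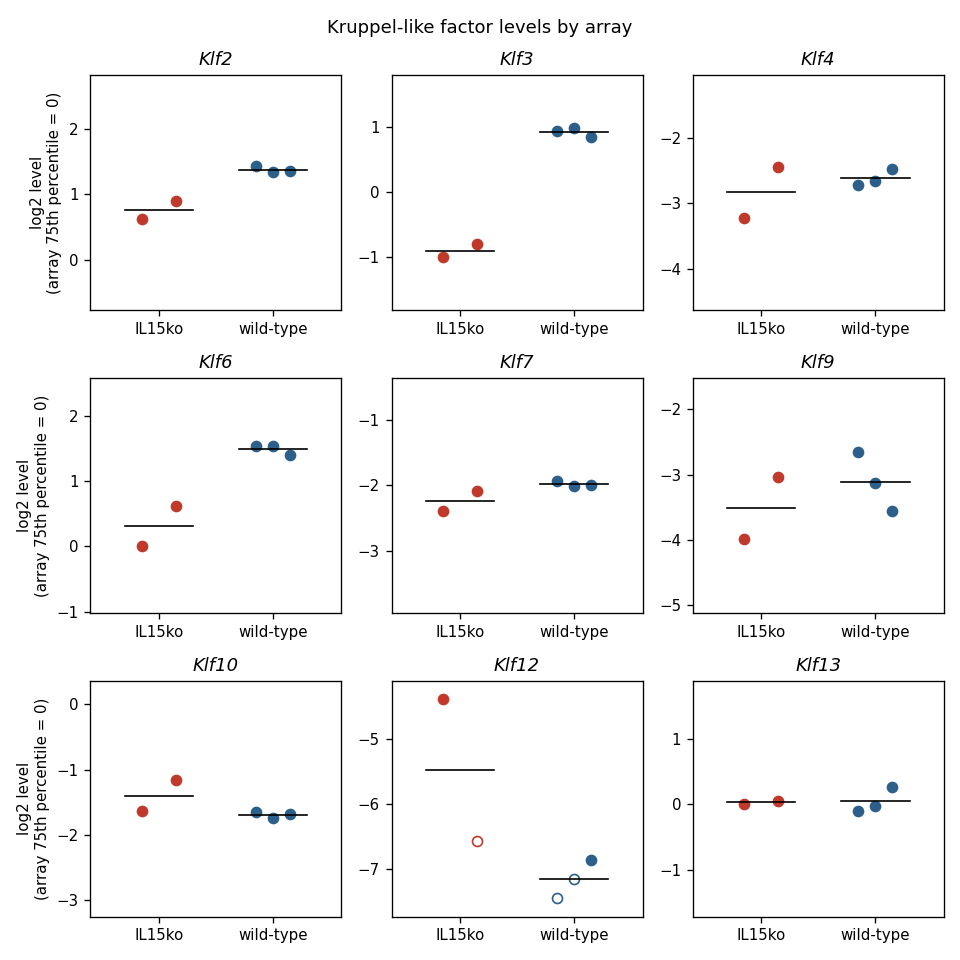
Log2 levels of the 9 Kruppel-like factors on each array, relative to that array's 75th percentile, with IL15ko arrays in red and wild-type arrays in blue. Each point is 1 array, filled where the probe was well above background, and bars are group means. All panels span the same range of log2 units. The groups are set apart clearly in Klf3 and Klf6, and Klf12 is brightest on IL15ko 1.

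Klf3 showed the clearest difference of the family. It encodes a repressor that binds CACCC boxes and recruits the corepressor CtBP. Its processed signal was 678 and 252 on IL15ko 1 and 2, against 2184, 1743 and 3502 on wild-type 1, 2 and 3. On the log2 scale, after scaling of each array, the levels were -0.99 and -0.80 in IL15ko, against 0.94, 0.98 and 0.84 in wild-type. The groups were separated by a gap of 1.64, while the arrays of 1 group lay within 0.192 of each other. Klf3 was 3.52-fold lower in IL15ko (95% confidence interval 2.79 to 4.45), a log2 difference of -1.82 ± 0.13 (SE), with a limma adjusted p of 0.00784. It ranked 40 of 11991 genes by p-value. Without wild-type 1 the difference was -1.81 and no longer called (adjusted p = 0.061), and it was called without each of the other 4 arrays.

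Klf6 also fell. It encodes a widely expressed member, known from other cells as an early-response gene and a growth suppressor. Its levels were 0.01 and 0.61 in IL15ko, against 1.54, 1.54 and 1.39 in wild-type. Both IL15ko arrays lay below every wild-type array, although they differed from each other by 0.599. Klf6 was 2.26-fold lower in IL15ko (1.56 to 3.26), a log2 difference of -1.18 ± 0.21 with an adjusted p of 0.0375. This call rested on single arrays. It was lost without IL15ko 1 (-0.88, adjusted p = 0.067), without wild-type 1 (-1.15, adjusted p = 0.147), without wild-type 2 (-1.15, adjusted p = 0.127) and without wild-type 3 (-1.23, adjusted p = 0.0642), and was kept without IL15ko 2 (-1.48, adjusted p = 0.0462).

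Klf2, the regulator of T-cell quiescence and egress, had levels of 0.62 and 0.90 in IL15ko, against 1.43, 1.35 and 1.35 in wild-type. The groups did not overlap, and the 3 wild-type arrays lay within 0.0887 of each other. The log2 difference was -0.62 ± 0.14 (1.53-fold, 1.20 to 1.97), which did not pass after adjustment over all genes (adjusted p = 0.0661). It had the same sign in all 17 alternatives, between -0.76 and -0.48, and passed in 2 of them, with probes well above background on all 5 arrays alone (adjusted p = 0.0392) and with a trended, robust variance prior (adjusted p = 0.0166).

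The 300 bases around the start sites of these 3 genes (250 before and 50 after, from RefSeq on GRCm38.p6) are given because these were the members with the smallest p-values. Capitals mark CACCC and GGGCGG (the GC box) on either strand and, in Klf2, a match to the MEF2 site, and neighbouring matches can overlap or abut.
Klf3, chr5:64803271-64803570, plus strand: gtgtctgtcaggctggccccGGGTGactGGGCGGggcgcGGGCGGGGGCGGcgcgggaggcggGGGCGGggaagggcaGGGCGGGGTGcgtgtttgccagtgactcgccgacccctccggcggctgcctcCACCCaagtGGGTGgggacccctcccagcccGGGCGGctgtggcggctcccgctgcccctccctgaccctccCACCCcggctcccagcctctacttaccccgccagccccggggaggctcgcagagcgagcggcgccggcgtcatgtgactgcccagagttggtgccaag
Klf6, chr13:5861239-5861538, plus strand: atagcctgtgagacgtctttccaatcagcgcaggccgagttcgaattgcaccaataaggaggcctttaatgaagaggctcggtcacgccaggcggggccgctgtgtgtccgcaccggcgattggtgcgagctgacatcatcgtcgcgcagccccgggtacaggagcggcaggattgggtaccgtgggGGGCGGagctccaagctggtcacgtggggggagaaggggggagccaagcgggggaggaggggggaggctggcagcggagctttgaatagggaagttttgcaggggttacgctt
Klf2, chr8:72318812-72319111, plus strand: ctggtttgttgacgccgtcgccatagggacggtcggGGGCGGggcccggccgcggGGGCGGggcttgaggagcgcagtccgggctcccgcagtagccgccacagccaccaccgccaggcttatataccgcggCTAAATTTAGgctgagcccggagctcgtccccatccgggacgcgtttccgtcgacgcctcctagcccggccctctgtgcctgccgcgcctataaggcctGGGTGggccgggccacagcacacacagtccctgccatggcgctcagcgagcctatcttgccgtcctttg
The Klf3 window held 5 matches to CACCC and 6 to GGGCGG. The Klf6 window held 0 and 1, and the Klf2 window 1 and 2. At least 1 CACCC was found in 57.5% and at least 1 GGGCGG in 35.7% of all 32851 windows of this length, and these windows were rich in GC (76.7% for Klf3, 63% for Klf6 and 69.3% for Klf2, against a median of 52.7%). The letters TTCNNNGAA, the core to which STAT5 binds downstream of interleukin-15, and TGTTTAC, a forkhead core, were in none of the 3 windows, and in 8.3% and 3.65% of all windows. Among the 8 members with a window, Klf9 alone held these letters, with 1 match to each. The MEF2 match in Klf2, a site through which ERK5 signalling is known to drive this gene, had a counterpart in 3.19% of all windows. These are matches of letters, not measured binding.

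The remaining members did not pass the test. Klf4, closely related to KLF2 and known as a brake on proliferation, had levels of -3.22 and -2.45 in IL15ko, against -2.72, -2.66 and -2.47 in wild-type. The IL15ko arrays enclosed all wild-type values, and the log2 difference was -0.22 ± 0.26 (adjusted p = 0.611). Klf7, known mainly from neurons, had levels of -2.39 and -2.08 in IL15ko, against -1.93, -2.01 and -1.99 in wild-type. Its groups were 0.0759 apart, with a difference of -0.26 ± 0.15 (adjusted p = 0.309).

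Klf9, which glucocorticoids induce in many cells, varied more within groups than between them. Its levels were -3.99 and -3.03 in IL15ko, against -2.65, -3.13 and -3.56 in wild-type, with a difference of -0.40 ± 0.39 (adjusted p = 0.541). Tsc22d3, another glucocorticoid-induced gene, had levels of -5.02 and -3.45 in IL15ko, against 1.20, 1.11 and -0.39 in wild-type. In both genes IL15ko 1 lay lowest of all arrays and wild-type 3 lowest of its group. Of the other glucocorticoid-linked genes listed, Dusp1 and Fkbp5 had this order too, Fkbp5 with a difference of only -0.04 ± 0.12. In Sgk1 and Nr3c1 wild-type 3 lay highest of its group. Per1 was lowest of all on wild-type 3, and Zbtb16 was higher on both IL15ko arrays than on any wild-type array.

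Klf10, the TGF-beta-inducible member, had levels of -1.64 and -1.16 in IL15ko, against -1.65, -1.74 and -1.67 in wild-type. The gap between the groups was 0.0137, and the difference was 0.29 ± 0.18 (adjusted p = 0.352). Klf13, an activator of Ccl5, had 0.01 and 0.05 in IL15ko, against -0.10, -0.02 and 0.26 in wild-type. Its log2 difference was -0.02 ± 0.16 (95% confidence interval -0.42 to 0.38, adjusted p = 0.947), and its sign turned in 6 of the 17 alternatives. Ccl5 itself had levels of -2.04 and -1.07 in IL15ko, against 2.97, 3.07 and 3.38 in wild-type, a log2 difference of -4.69 ± 0.32 (adjusted p = 0.00642).

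Klf12, a repressor that like KLF3 works through CtBP, was near background on 3 of the 5 arrays. Its processed signal was 64.1 and 4.63 on IL15ko 1 and 2, against 6.55, 6.23 and 16.9 on wild-type 1, 2 and 3. Levels were -4.40 and -6.57 in IL15ko, against -7.44, -7.15 and -6.86 in wild-type, and at such signals the software's error reached 63.8%. The difference of 1.67 ± 0.64 did not pass (unadjusted p = 0.0462, adjusted p = 0.175), and it rested on IL15ko 1. It was 0.58 without IL15ko 1 (adjusted p = 0.251), and 2.75 without IL15ko 2, where it was called (adjusted p = 0.0448).

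Read as a family, 2 of the 9 members were called lower, against 3.58% of all genes tested, and 0 were called higher, against 3.75% (7.33% in either direction). At an unadjusted p under 0.05, 3 were lower and 1 was higher, against 27.5% of all genes in either direction. The members' groups did not overlap in 4 genes that were lower in IL15ko (Klf2, Klf3, Klf6 and Klf7), against 22.1% of all genes, and in 2 that were higher (Klf10 and Klf12), against 25.1% (47.2% in either direction). The gap in Klf10 was only 0.0137. Klf12 was not well above background on IL15ko 2. Its processed signal there, 4.63, was below that of each wild-type array and lay higher only after scaling of each array. Differences lay below 0 in 7 of 9 members, against 48.6% of all genes. Their median log2 difference was -0.26, beside 0.01 over all genes tested. The excess of negative differences rested on IL15ko 1. Without that array 4 of 9 lay below 0 and the members' median was 0.0012. Without wild-type 1, limma called 0 members, with 3 of 9 at an unadjusted p under 0.05, against 17% of all genes, of which 9 were called.

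**Figure D2:**
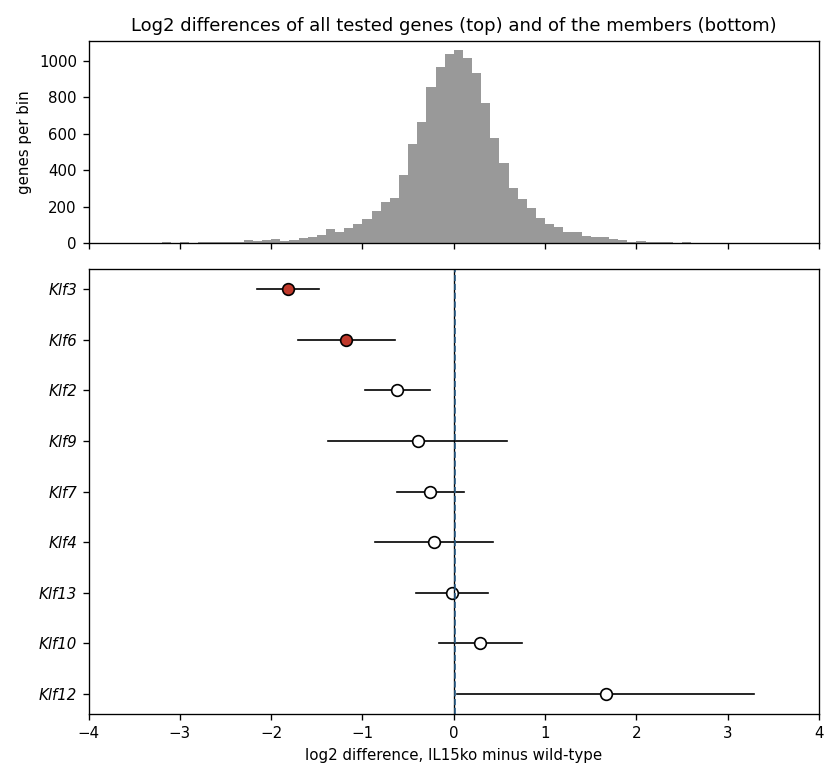
Log2 differences (IL15ko minus wild-type) of the 11991 tested genes as a histogram with bins of 0.1, above those of the 9 members with limma's 95% confidence intervals. Red points passed an adjusted p under 0.05, the dashed line is the median of all genes, and 14 genes beyond 4 log2 units are not drawn. Klf3 at -1.82 lies in the lower tail of the histogram, and Klf13 at -0.02 at its centre.

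Within the IL15ko group, 8 of the 9 members were higher on IL15ko 2, and Klf12, near background there, was lower by 2.17. All 8 clearly measured members differed in the same direction, by 0.0418 (Klf13) to 0.958 (Klf9) on the log2 scale, while 45.4% of all tested genes were higher on IL15ko 2. The 12 tested immediate-early genes, transcripts that rise within minutes of stimulation or cell handling, were likewise all higher on IL15ko 2, by 0.0194 (Ier3) to 2.29 (Fosb). Between IL15ko and wild-type, 0 of these 12 genes were called in either direction, and their median log2 difference was -0.16. Nr4a1 had the smallest p among them, with a difference of 1.74 ± 0.43 (adjusted p = 0.0746). Of 6 tested heat-shock genes, 1 fell and 0 rose, with a median of -0.08. Over all genes tested, 3.58% were called lower and 3.75% higher. Hspa1a, a strongly inducible one, had levels of -5.22 and -2.30 in IL15ko, against -4.07, -3.96 and 0.23 in wild-type, so that wild-type 3 stood far above all other arrays. The gene that fell was Dnajb1 (-0.98 ± 0.14, adjusted p = 0.0227), which was called in 8 of 17 alternatives and lost without either IL15ko array, wild-type 1 or wild-type 2 (adjusted p 0.0704 to 0.12). The part of cell handling in the spread of Klf4, Klf6 and Klf9 was not tested.

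**Figure D3:**
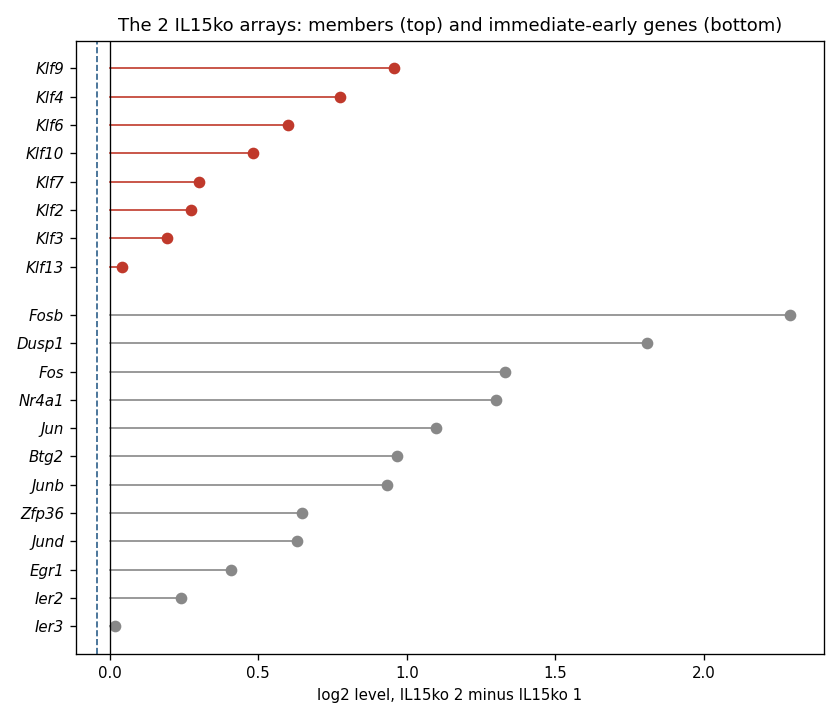
Log2 level on IL15ko 2 minus that on IL15ko 1 for the 8 Kruppel-like factors well above background on all arrays (red, top) and the 12 tested immediate-early genes (grey, bottom). The dashed line is the median of all tested genes, -0.0434. Klf12, at -2.17, is not drawn. Every point drawn lies to the right of 0, from 0.0194 in Ier3 to 2.29 in Fosb.

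Other cells of the thymus carry Klf2, Klf4 and Klf6 as well, endothelium and myeloid cells among them. Of 4 endothelial markers, Cdh5 and Tek were well above background on no array, and Pecam1 and Kdr were so on all 5. The endothelial list had a summed level of 2.07 to 2.47 in IL15ko and 1.25 to 5.09 in wild-type arrays. Of the 4 myeloid markers with a named probe, Lyz2 was well above background on no array, Cd14 was so on 1 wild-type array, and Csf1r and Itgam on all 5. Their sum was 4.57 to 10.6 in IL15ko and 4.10 to 5.91 in wild-type arrays. In both sums the groups overlapped, which did not hold for each marker. Kdr made most of the endothelial sum and Itgam most of the myeloid sum on every array, so these sums say little about the other markers. Csf1r, a macrophage growth factor receptor gene, had levels of -2.63 and -3.82 in IL15ko, against -1.14, -0.33 and -1.34 in wild-type. Its difference of -2.29 ± 0.46 just missed the threshold (adjusted p = 0.0509) and passed in 5 of 17 alternatives. It had the same direction as Klf3, Klf6 and Klf2. With the mean of the Csf1r probes the difference was -0.94 (adjusted p = 0.185). Itgam, the other myeloid marker tested, went the other way (0.70 ± 0.40, adjusted p = 0.312). Pecam1 lay higher in IL15ko without overlap (0.59 ± 0.12, adjusted p = 0.0534). Of 4 B-cell markers, Cd79a, Ms4a1 and Pax5 were well above background on no array. Cd79b was so on all 5 and made the largest part of the list's sum. Its levels were -3.89 and -4.06 in IL15ko, against -4.54, -5.28 and -4.86 in wild-type (difference 0.92 ± 0.24, adjusted p = 0.0882). The summed level of the list was 0.0798 to 0.0945 in IL15ko and 0.0433 to 0.0691 in wild-type arrays, without overlap. Likewise the 4 erythroid markers, with Alas2 and Klf1 above background on no array, summed to 0.0333 to 0.0375 in IL15ko and 0.0188 to 0.0262 in wild-type. The NK markers Ncr1 (no array) and Eomes (1 wild-type array) summed to 0.011 to 0.0154 in IL15ko and 0.00815 to 0.033 in wild-type. The 4 thymic epithelial markers, with Krt8 and Foxn1 on no array, summed to 0.021 to 0.0439 in IL15ko and 0.0229 to 0.0575 in wild-type. The summed level of the 6 double-positive thymocyte markers was 0.0606 to 0.163 in IL15ko and 0.0401 to 0.142 in wild-type. The part of other cells in the differences of the members was not tested.

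Most of the wider family was not detected. Of the 8 other Kruppel-like factors, Klf1, Klf5, Klf11, Klf14, Klf15 and Klf17 were well above background on none of the arrays. Klf16, a GC-box binding member, had levels of -2.51 and -2.33 in IL15ko, against -2.71, -2.96 and -2.74 in wild-type (difference 0.38 ± 0.15, adjusted p = 0.176). Klf8 had a difference of 0.80 ± 0.42 (adjusted p = 0.28). Of the related Sp factors, which bind the same GC boxes, 6 of 9 were tested and 0 were called, with a median of -0.34. The smallest p-values were those of Sp4 (-0.52 ± 0.18, adjusted p = 0.145) and Sp1 (0.71 ± 0.27, adjusted p = 0.168).

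Among the 5 trafficking genes linked to KLF2 that are reported, all of them tested, 2 rose, 0 fell and 3 did not pass. Of all genes tested, 3.75% were called higher and 3.58% lower. The median log2 difference of the 5 trafficking genes was 0.83, while that of Klf2 itself was -0.62. Ccr7, a chemokine receptor gene of naive T cells, had levels of 1.25 and 0.94 in IL15ko, against -0.65, -0.56 and -0.50 in wild-type. Its groups lay far apart. Ccr7 was 3.17-fold higher (adjusted p = 0.0101), and Il6ra, a chain of the IL-6 receptor, 2.53-fold higher (adjusted p = 0.0164). S1pr1, the egress receptor gene, had levels of -0.81 and -1.41 in IL15ko, against -1.96, -1.81 and -2.04 in wild-type, a difference of 0.83 ± 0.22 that missed the threshold (adjusted p = 0.0852). The integrin gene Itgb7 had 0.18 ± 0.13 (adjusted p = 0.4) and S1pr4 -0.96 ± 0.45 (adjusted p = 0.235). Neither call held without wild-type 1 (adjusted p = 0.0675 for Ccr7 and 0.0877 for Il6ra) or without wild-type 2 (adjusted p = 0.0572 and 0.0745).

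**Figure D4:**
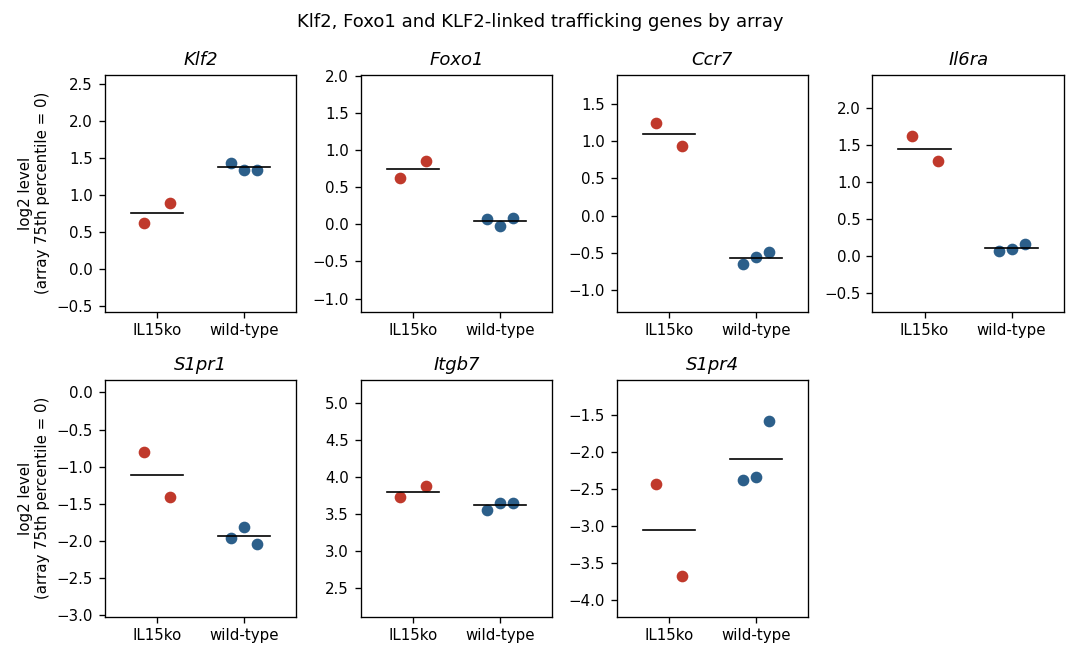
Log2 levels of Klf2, Foxo1 and 5 trafficking genes linked to KLF2 on each array, relative to the array's 75th percentile, with IL15ko arrays in red, wild-type arrays in blue and bars for group means. All panels span the same range. Klf2 is lower in both IL15ko arrays, while Foxo1, Ccr7, Il6ra, S1pr1 and Itgb7 are higher in both, and S1pr4 is lower.

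Over all lists of related genes, 5 of 79 tested genes rose and 7 fell. The 7 include Siah1a, which passed the filter through its wild-type arrays alone. Of all genes tested, 3.75% were called higher and 3.58% lower. Of 8 tested genes of the ERK5, MEF2 and FOXO routes to Klf2 and Klf4, 1 rose and 0 fell, with a median of 0.13. Foxo1, a forkhead factor that activates Klf2 in T cells, had levels of 0.63 and 0.86 in IL15ko, against 0.08, -0.02 and 0.09 in wild-type. Its rise of 1.62-fold (0.69 ± 0.14, adjusted p = 0.0476) was called in 2 of 17 alternatives and in none that left out an array (adjusted p 0.0682 to 0.188). Of the 11 tested corepressors and coactivators 0 were called, with a median of 0.00 (-0.0044). Ctbp1, the partner of KLF3 and KLF12, had a difference of -0.25 ± 0.14 (adjusted p = 0.321), with levels of 2.51 and 2.37 in IL15ko, against 2.73, 2.54 and 2.80 in wild-type. Ctbp2 was well above background on wild-type 3 only.

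Of 7 TGF-beta pathway genes linked to Klf10, 1 fell and 0 rose, with a median of 0.18. Over all genes tested, 3.58% were called lower and 3.75% higher. Smad7, an inhibitor of that pathway, was 2.19-fold lower (-1.13 ± 0.20, adjusted p = 0.0353), a call lost when any 1 array was left out (adjusted p 0.0541 to 0.152). Tgfb1, the ligand, had a difference of 0.86 ± 0.20 (adjusted p = 0.0689). Of 7 ubiquitin ligases that act on KLF proteins, 6 were well above background on at least 1 array of each group, and 0 of these were called. Siah1a passed the filter through its wild-type arrays alone, so its difference is given as a description. Its mean log2 level was -7.11 in IL15ko, where it was not well above background on either array, against -5.73 in wild-type, and its sign turned with a normexp background correction. It has a near-identical copy, Siah1b, from which its probe's signal may not be separate. Of 5 tested genes tied to KLF13 and Ccl5 regulation besides Ccl5 itself, 0 were called, and the median with Ccl5 was -0.0055. Without wild-type 1 the difference of Ccl5 was -4.78, with an adjusted p of 0.0536.

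The list of glucocorticoid-linked genes had 3 of 7 members lower and 1 higher, with a median of -0.80. Of all genes tested, 3.58% were called lower and 3.75% higher, and the list was chosen with earlier results of these data known. Nr3c1, the glucocorticoid receptor gene, was 1.74-fold lower (-0.80 ± 0.15, adjusted p = 0.0442), Sgk1, a kinase gene, 4.81-fold lower (adjusted p = 0.0139) and Tsc22d3 29.3-fold lower (8.95 to 95.9, adjusted p = 0.022). With 1 array left out the log2 difference of Tsc22d3 ranged from -5.66 (without IL15ko 2) to -4.09 (without IL15ko 1). The higher one was Zbtb16, the NKT-lineage factor gene PLZF, which glucocorticoids induce in other cells (2.83-fold, adjusted p = 0.0161). Nr3c1 was lost when any 1 array was left out, Sgk1 and Tsc22d3 without either IL15ko array or wild-type 1, Tsc22d3 also without wild-type 2, and Zbtb16 without IL15ko 2, wild-type 1 or wild-type 2 (adjusted p 0.0557 to 0.177 over these fits). Of 5 tested cell-cycle genes linked to KLF2 and KLF4, 1 rose and 0 fell, with a median of 0.05. This was Ccne1, which encodes cyclin E1 (1.98-fold, adjusted p = 0.0465, lost when any 1 array was left out), while the inhibitor gene Cdkn1b had -0.46 ± 0.14 (adjusted p = 0.12) and Myc 0.05 ± 0.15 (adjusted p = 0.857). Cdkn1a and Ccnd1 were well above background on none of the arrays.

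The tested genes whose profile over the 5 arrays lay closest to that of Klf3 were Tbx21, the gene of the NKT1 factor T-bet, Rhoc and Apol9a. Likeness was the root mean square difference of log2 levels after each gene was centred on its mean, which came to 0.0597, 0.0878 and 0.0999. Their log2 differences were -1.77, -1.74 and -1.82. For Klf12, the member with the smallest p among those with a positive difference, the closest were Nos1, Fam83a and Alg6, at 0.367, 0.376 and 0.402, farther from it than those genes were from Klf3.

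**Figure D5:**
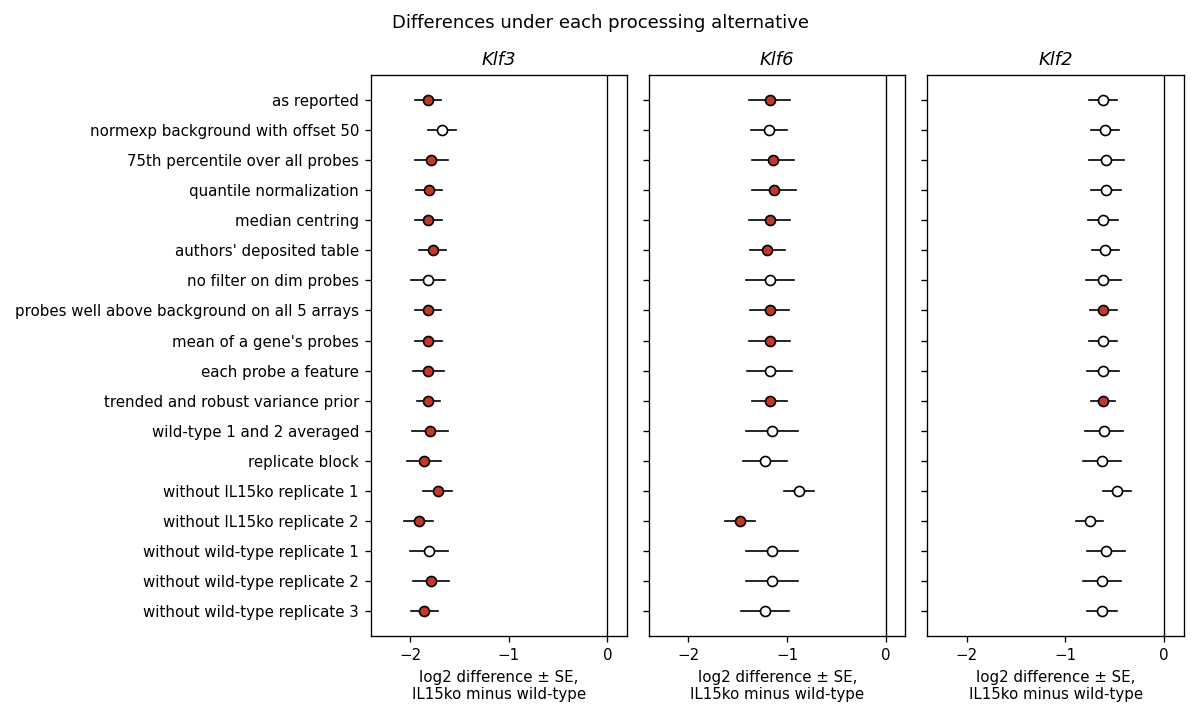
Log2 differences (IL15ko minus wild-type) with limma's SE for Klf3, Klf6 and Klf2 as reported and under each of 17 alternatives. Red points passed an adjusted p under 0.05. Klf3 stays between -1.91 and -1.68, Klf6 between -1.48 and -0.88 and Klf2 between -0.76 and -0.48, and what varies is mainly which points pass.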

How the data were processed

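Total RNA of 2 IL15ko and 3 wild-type samples was measured on 1-colour Agilent arrays of 1 slide with 1 scan time, which leaves neither as a batch to test. Per the file headers, the deposited spot intensity values come from Agilent Feature Extraction 10.7.1.1, and the processed signal used here had its background and spatial trend removed by that software. limma is named in the submitters' processing notes, its settings being not given in the sources used here. The authors' deposited value table holds linear intensity values that equal the spot median minus the local background plus a constant per array (7.36 to 17.2), with column medians of 24.4 and 15.8 in IL15ko and 22.6 to 26.0 in wild-type. The origin of the constant stays unknown, and the table was used as an alternative only.

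Control and outlier spots were left out, spots of a probe averaged, and log2 processed signals scaled to each array's 75th percentile over 18519 probes flagged well above background on every array. Accessions were matched without versions to NCBI's GRCm38.p6 annotation, which named 26425 of 55681 probes and left 29256 unnamed. Each gene was represented by its brightest probe, and the 11991 genes flagged so on 2 or more arrays entered limma 3.58.1 (R 4.3.3; lmFit, eBayes; no covariates) with 3 residual and 2.28 prior degrees of freedom, Benjamini-Hochberg adjustment over all genes and a threshold of 0.05. The fit was run on simulated data with independent noise and no array effects, which cannot show how calls depend on single arrays. The scanner files hold no mean spot signal, so the normexp alternative used the spot median. The number of arrays limits the precision. The labels do not say that replicates of a group were separate pools, so the spread behind a p-value may be technical only. A gene of the trafficking list and a B-cell marker are not reported here and enter no list count. The members and gene lists were chosen with earlier results of these data known. The text names every member, up to 4 called genes of each list by smallest p, genes needed to explain a count, and the 3 nearest profiles of the member with the smallest p in each direction. Nr4a1, Sp1, Sp4, Tgfb1, Cdkn1b, Hspa1a, Csf1r and Pecam1 were named after their values were seen.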

Additional observations from a re-analysis of the deposited data

How the results depend on the processing

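Over 17 alternatives the log2 difference of Klf3 lay between -1.91 and -1.68 and was called in 14, that of Klf6 between -1.48 and -0.88 and was called in 8, and those of Klf2, Klf7, Klf10 and Klf12 kept their sign (Klf12 in the 16 in which it was tested). Klf3 was lost with a normexp background correction (adjusted p = 0.0536), without the filter on dim probes (adjusted p = 0.0812) and without wild-type 1. Klf6 was lost in these (adjusted p = 0.0872, 0.17 and 0.147), with each probe as a feature (adjusted p = 0.0687), with wild-type 1 and 2 averaged (adjusted p = 0.13), in the replicate block (adjusted p = 0.0654) and without IL15ko 1, wild-type 2 or wild-type 3.

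Under normexp with an offset of 50, limma called 0 genes higher and 1 lower, with 1957 at an unadjusted p under 0.05, and 0 members and 0 related genes in either direction. The median log2 difference of all genes was then 0.22. Without the filter it called 0 genes higher and 3 lower (2748 at an unadjusted p under 0.05), again with 0 members and 0 related genes, over 20009 genes tested. With probes well above background on all 5 arrays 710 genes were higher, and with a trended, robust prior 817 genes and 8 related genes were higher and 692 genes lower. With wild-type 1 and 2 averaged 33 genes were higher and 63 lower, 1 member was lower, and 0 related genes were higher and 1 lower. With each probe as a feature, 1 member and 4 related genes were lower. Under quantile normalization 4 related genes were lower, against 7 of 79 as reported (Siah1a included), with 5 higher. With each probe as a feature, the mean of a gene's probes or the authors' deposited values, 3 related genes were higher. With the authors' deposited values 1 member, Klf12, was called higher. Leaving out 1 array gave 1 to 373 genes higher and 8 to 410 lower, 0 to 1 members higher and 0 to 2 lower, and 0 to 4 related genes higher and 0 to 6 lower, with the lowest counts without wild-type 1 (9 genes in all). The cause of these changes was not tested.

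The labels name no source that the numbers 1 and 2 share. Deviations from the group means correlated at -0.129 for number 1 and 0.209 for number 2 across genes, which settles nothing, since the deviations of the 2 IL15ko arrays mirror each other. With the replicate block, 138 genes were higher and 241 lower, 1 member was lower, and 2 related genes were higher and 4 lower.

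The log2 difference of Klf13 turned to 0.000699 with normexp, 0.0118 with the percentile over all probes, 0.00633 with the authors' deposited values and 0.0872 in the replicate block. With 1 array left out it ranged from -0.091 to 0.0872, that of Klf4 from -0.61 to 0.169 and that of Klf9 from -0.88 to 0.0824, with positive values of Klf4 and Klf9 without IL15ko 1 and of Klf13 without IL15ko 1 or wild-type 3. Siah1a turned to 0.336 with normexp. Klf12 was near background on 3 of 5 arrays, which limits what its values can show.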
